A study of Mus musculus with 4 samples.

Results

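Levels of 10 antioxidant genes were followed in hematopoietic stem cells (HSC) and common lymphoid progenitors (CLP) of wild-type (WT) and GRK6 knockout (GRK6-/-) mice. The genes encode the superoxide dismutases (Sod1, Sod2 and Sod3), catalase (Cat), the glutathione peroxidases Gpx1 and Gpx4, and the enzymes that make or recycle glutathione (Gclc, Gclm, Gss and Gsr). They were chosen by symbol, and all 10 were found among the 12417 genes kept in the series. All 10 had a value in GRK6-/- HSC and 9 in each of the other libraries. RNA-seq was done on 4 libraries, 1 for each population and genotype. HSC were sorted from bone marrow as Lin-c-kit+sca-1+ cells and CLP as the Lin-c-kit+sca-1+Il-7Ra+ fraction. The HSC gate is known to hold multipotent progenitors besides stem cells. All mice were of the C57BL/6 strain, WT and GRK6-/- animals were littermates, and experimental mice were 8 to 12 weeks old unless the methods gave another age. The labels name no treatment of any group. In GRK6-/- mice, exons 3 to 9 of Grk6 are deleted in the germ line, so that every cell of the animal carries the deletion. Each library was a pool of 13 to 15 cells from 3 to 4 mice, whose cDNA was amplified cell by cell. With 1 library per group there were no replicates, no difference between 2 libraries has an estimate of error, and the spread between mice or cells could not be seen.

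Superoxide, which leaks from the mitochondrial respiratory chain and is made by NADPH oxidases, is turned into hydrogen peroxide by superoxide dismutases. Catalase and glutathione peroxidases remove the peroxide, and the glutathione spent in this way is rebuilt by glutathione reductase with NADPH. Glutathione itself is made in a first step by glutamate-cysteine ligase, a heterodimer of a catalytic subunit (Gclc) and a modifier subunit (Gclm), and in a last step by glutathione synthetase (Gss). Stem cells of the marrow are known to keep reactive oxygen species low, and several of these genes are textbook targets of the transcription factor NRF2, which binds the antioxidant response element (ARE).

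Because NRF2 acts through ARE sites, the 250 bases before the annotated start were searched in the RefSeq promoter table (GRCm38.p6). That table held 7 of the 10 genes and had no entry for Sod3, Gclc and Gsr. The ARE core was written as TGACNNNGC, or GCNNNGTCA on the other strand. It was present in the windows of Gclm and Sod1 and in 10.2% of all 32851 promoter windows of the same length. The windows of Sod2, Cat, Gpx1 and Gss and the 4 windows of Gpx4 did not hold these letters. The windows of Gclm, Sod1 and Sod2 are shown, with the ARE core in capitals. Of the genes past 2-fold between genotypes, Gclm (in HSC and CLP) and Sod1 (in HSC) hold the core. Sod2 and Gss, past 2-fold in CLP, do not hold it, and Gss had no row in GRK6-/- CLP. A part of the core in these differences was not tested.
Gclm, chr3:122245307-122245556, plus strand: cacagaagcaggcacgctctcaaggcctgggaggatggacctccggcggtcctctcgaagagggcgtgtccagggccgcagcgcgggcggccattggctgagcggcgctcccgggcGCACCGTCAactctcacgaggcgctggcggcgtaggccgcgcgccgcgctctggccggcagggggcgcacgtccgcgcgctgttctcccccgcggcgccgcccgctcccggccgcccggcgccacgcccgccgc
Sod1, chr16:90220512-90220761, plus strand: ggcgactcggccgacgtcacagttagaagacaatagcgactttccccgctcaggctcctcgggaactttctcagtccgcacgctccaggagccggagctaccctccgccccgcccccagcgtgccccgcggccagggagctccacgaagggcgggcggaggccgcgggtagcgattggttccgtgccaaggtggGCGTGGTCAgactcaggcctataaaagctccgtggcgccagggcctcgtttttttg
Sod2, chr17:13007589-13007838, plus strand: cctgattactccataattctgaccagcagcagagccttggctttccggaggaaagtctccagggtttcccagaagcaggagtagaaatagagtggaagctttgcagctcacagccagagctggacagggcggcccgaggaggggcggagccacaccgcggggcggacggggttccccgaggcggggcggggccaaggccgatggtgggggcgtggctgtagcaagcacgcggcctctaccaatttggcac
In Gclm the core began 134 bases before the start and in Sod1 56 bases before it, both on the minus strand. GC boxes, searched as GGGCGG or CCGCCC, were found in 32.7% of all windows. The Gclm window held 3 of them, the Sod1 window 4 and the Sod2 window 4, and none overlapped an ARE core. The G and C content was 78.4% in the Gclm window, 66.4% in that of Sod1 and 63.6% in that of Sod2, against a median of 52.4% over all windows. Such matches describe sequence only and do not show binding.

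The libraries were first checked against their labels. Il7r, the receptor subunit that defines the CLP gate, had 120.1 FPKM (fragments scaled to transcript length and library size) in WT CLP and 75.1 in GRK6-/- CLP, against no row in WT HSC and 1.08 in GRK6-/- HSC. Kit was found in all 4 libraries, between 26.2 and 81.8 FPKM. Ly6a, which encodes Sca-1, had no row of its own in any library. Summed over 8 of 9 HSC gate markers with a row, FPKM was 282 (WT) and 440 (GRK6-/-) in HSC and 310 (WT) and 484 (GRK6-/-) in CLP, so this list did not set the populations apart. The 8 of 9 CLP gate markers with a row summed to 222 (WT) and 152 (GRK6-/-) in HSC against 2782 (WT) and 2074 (GRK6-/-) in CLP. Grk6, the targeted gene, had 42.7 FPKM in WT and 89.4 in GRK6-/- HSC, and 26.9 in WT and 57.6 in GRK6-/- CLP. It was thus not lower in the libraries labelled GRK6-/-, and since the files give 1 value per gene, they do not show whether the deleted exons were read. Every direction between genotypes below therefore rests on the labels alone, and GRK6-/- stands for the library so labelled.

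Markers of other cells differed between the libraries as well. Of 12 erythroid markers 9 had a row, and their summed FPKM was 341 (WT) and 1744 (GRK6-/-) in HSC but 154 (WT) and 18177 (GRK6-/-) in CLP. Hba-a1, Hbb-b1 and Hbb-b2 had no row in any library. The 10 myeloid markers summed to between 7787 in GRK6-/- CLP and 17840 in WT HSC, so none of the libraries lacked them. The 5 B lineage markers with a row summed to 886 in GRK6-/- CLP and to 90.3 or less in the others. The 5 megakaryocyte markers ranged from 13.1 in GRK6-/- HSC to 149 in WT HSC, and 4 of 5 T and NK markers, mainly Nkg7, from 248.5 in WT CLP to 609 in WT HSC. The part of these differences in the results below was not tested. In pools of this kind fewer cells of a type and less RNA per cell cannot be told apart.

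Depth was read from the lowest values, which fell in steps. A single fragment in a transcript of 1 kb was worth 0.347 FPKM in WT and 0.265 in GRK6-/- HSC, and 0.230 in WT and 0.359 in GRK6-/- CLP. Of the 10 antioxidant genes, all except Sod3 therefore rested on at least 14.1 fragments per kb wherever they had a row, while some values of other genes named below rest on fewer. Fragments from amplified cDNA are not independent molecules, so counting error is only part of the uncertainty.

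Among the superoxide dismutases, Sod1 (Entrez Gene 20655, mm9 chr16:90220987-90226569, plus strand), the cytosolic copper-zinc enzyme, was abundant in every library. In HSC it had 471 FPKM in WT and 1048 in GRK6-/-, and in CLP 706 and 1098, which placed it at or above the 98.3 percentile of all genes with a row. Both libraries labelled GRK6-/- were thus above both WT libraries. The level was 2.23-fold higher in GRK6-/- HSC than in WT HSC and 1.56-fold higher in GRK6-/- CLP than in WT CLP. On the log2(FPKM + 1) scale used for all ratios the difference was 1.15 in HSC, past the 2-fold threshold, and 0.64 in CLP, short of it. With the libraries rescaled without the erythroid markers, the Sod1 difference was 1.01 in HSC, barely past the threshold, and 0.79 in CLP. Ccs, the chaperone that loads copper into SOD1, was picked for mention after its values had been seen. It had 21.7 FPKM in WT and 50.1 in GRK6-/- HSC, and 34.3 in WT and 68.6 in GRK6-/- CLP, a log2 difference of 1.17 in HSC and 0.98 in CLP.

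Sod2 (Entrez Gene 20656, mm9 chr17:13200705-13210985, plus strand), the manganese enzyme of mitochondria, had 25.3 FPKM in WT and 35.1 in GRK6-/- HSC, and 19.6 in WT and 5.04 in GRK6-/- CLP. A single library, GRK6-/- CLP, lay well below the rest, at the 30.7 percentile of its genes where the other libraries had Sod2 between the 62.5 and the 78.8 percentile. The level there was 3.89-fold lower than in WT CLP (log2 difference -1.77) and 6.96-fold lower than in GRK6-/- HSC (-2.58). In HSC the difference between genotypes had the other sign and was smaller, at 0.46. The value of 5.04 FPKM corresponds to about 14.1 fragments per kb of transcript. Since Sod1 and Sod2 went apart in CLP, the ratio of their FPKM, which does not depend on how a library is scaled, was 18.6 (WT) and 29.8 (GRK6-/-) in HSC but 36.0 (WT) and 218 (GRK6-/-) in CLP.

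Sod3 (Entrez Gene 20657, mm9 chr5:52755043-52760977, plus strand), the secreted enzyme, was at the edge of detection. It had no row in WT HSC or WT CLP, and was listed at 0.133 FPKM in GRK6-/- HSC and at 0.182 in GRK6-/- CLP. Over the annotated transcript of 3570 bp these values amount to about 1.79 and 1.82 fragments. The listed locus ended at 52760977 and that transcript at 52762644, so the FPKM may rest on a shorter length and on fewer fragments. A difference between genotypes was not detectable at this depth.

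**Figure D1:**
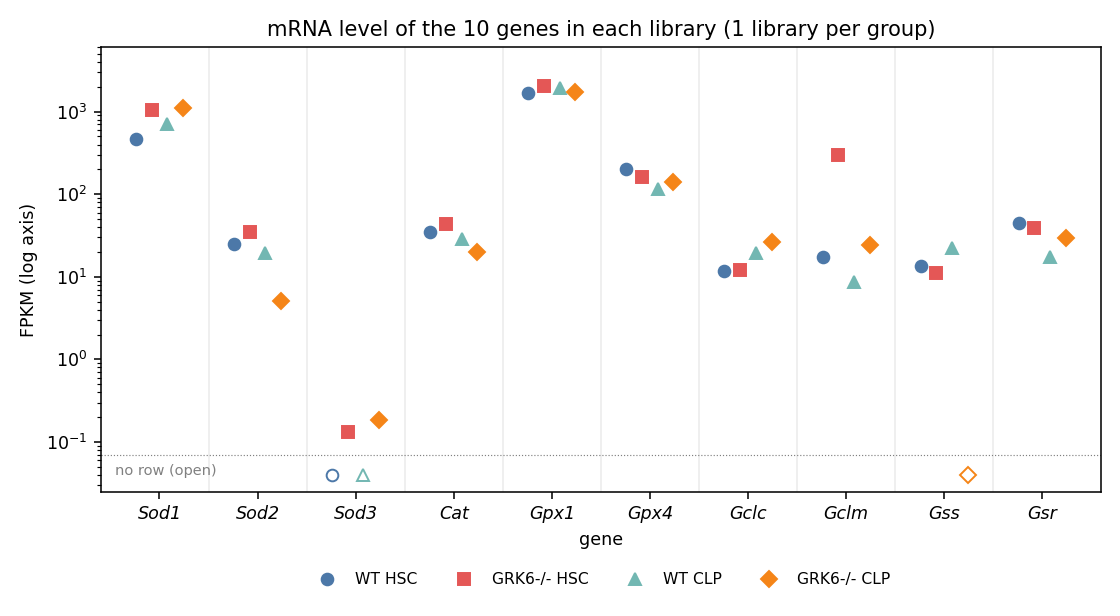
FPKM of the 10 genes (logarithmic vertical axis) in the 4 libraries, with 1 symbol per library and open symbols at the bottom where a gene had no row. Gpx1 and Sod1 lie highest, Gclm in GRK6-/- HSC (302 FPKM) stands above its other 3 values, and Sod2 in GRK6-/- CLP (5.04 FPKM) lies below its other 3.

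Of the enzymes that remove peroxides, none was past 2-fold between genotypes in either population. Gpx1 (Entrez Gene 14775, mm9 chr9:108241411-108242673, plus strand), the main cytosolic glutathione peroxidase, was the most abundant of the 10 genes in every library, with 1684 FPKM in WT and 2060 in GRK6-/- HSC, and 1946 in WT and 1744 in GRK6-/- CLP. Its highest value was 1.22 times its lowest, the narrowest span among the 8 antioxidant genes with a row in all 4 libraries. The log2 difference between genotypes was 0.29 in HSC and -0.16 in CLP. Gpx4 (Entrez Gene 625249, mm9 chr10:79516255-79519184, plus strand), which reduces lipid peroxides in membranes, had 203 FPKM in WT and 163 in GRK6-/- HSC, and 116 in WT and 140 in GRK6-/- CLP. It was lower in GRK6-/- than in WT HSC by a log2 difference of -0.31 and higher in GRK6-/- than in WT CLP by 0.27, both short of 2-fold.

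Cat (Entrez Gene 12359, mm9 chr2:103294061-103325310, minus strand), the peroxisomal catalase, had 35.1 FPKM in WT and 43.4 in GRK6-/- HSC, and 28.9 in WT and 19.8 in GRK6-/- CLP. Both HSC libraries were above both CLP libraries. The log2 difference between genotypes was 0.30 in HSC and -0.52 in CLP, and the difference between CLP and HSC was -0.27 in WT and -1.09 in GRK6-/-. With the libraries rescaled without the erythroid markers the latter was -0.84, short of 2-fold. Hba-a2, a hemoglobin gene, had 17220 FPKM in GRK6-/- CLP and at most 53.2 in the other libraries, and its part in the Cat and Gpx1 values was not tested.

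Of the genes for glutathione synthesis, Gclc (Entrez Gene 14629, mm9 chr9:77602342-77642296, plus strand), the catalytic subunit of glutamate-cysteine ligase, differed little between genotypes in HSC, with 11.8 FPKM in WT and 11.9 in GRK6-/- (log2 difference 0.01). It was higher in CLP, at 19.7 FPKM in WT and 26.1 in GRK6-/-. The difference between CLP and HSC was 0.69 in WT and 1.07 in GRK6-/-, and that between genotypes in CLP was 0.39.

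Gclm, the modifier subunit, which raises the affinity of the ligase for glutamate, had the widest range of the 10 genes. In HSC it had 17.6 FPKM in WT and 302 in GRK6-/-, and in CLP 8.54 and 24.0. Both GRK6-/- libraries were above both WT libraries, as for Sod1, an order whose share among all genes was not measured. GRK6-/- HSC stood far above all others. The level was 17.2-fold higher in GRK6-/- HSC than in WT HSC (log2 difference 4.03), which ranked 85 from the highest of 11624 ratios. In CLP it was 2.81-fold higher (log2 difference 1.39), a ratio that ranked 2311 from the highest of 11191. The Gclm to Gclc ratio was 1.48 (WT) and 25.3 (GRK6-/-) in HSC but 0.434 (WT) and 0.919 (GRK6-/-) in CLP.

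The high Gclm value came with a different locus in the file. In mm9, Gclm (Entrez Gene 14630, plus strand of chromosome 3) was listed from 121948510 to 121969566 in WT HSC and in both CLP libraries, but to 121970663 in GRK6-/- HSC, 1097 bp longer. Both ends lie in the last of 7 annotated exons (121969146 to 121972902), after the end of the coding sequence at 121969315, so the listed gene differs in its 3′ untranslated part. Higher values at another locus were not particular to Gclm. Of 5721 genes with an identical locus in the other 3 libraries, 547 had another locus in GRK6-/- HSC. Their median log2 difference from the mean of the other libraries was 0.55, against 0.01 for the 5174 genes with the same locus throughout. At least 4-fold higher values were seen in 9.14% of the former and 2.22% of the latter, and at least 8-fold higher values in 2.19% and 0.387%. Gclm itself lay 4.20 above the mean of the other libraries. The same median was 0.58 for 380 such genes in WT HSC, 0.47 for 384 in WT CLP and 0.59 for 361 in GRK6-/- CLP, against 0.02 or less for genes with the same locus. The part of the listed locus in the Gclm value was not tested. The log2 difference of 1.39 in CLP was read over the same listed locus in both libraries.

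**Figure D2:**
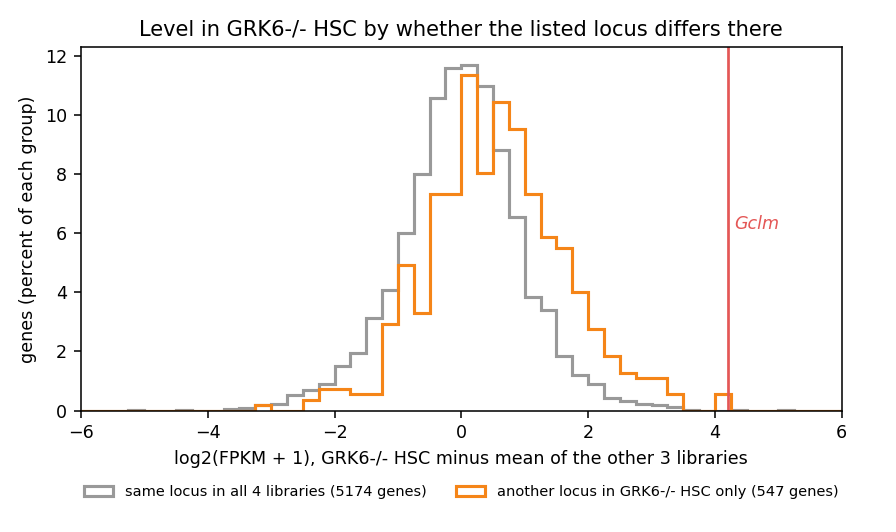
Distribution of the log2(FPKM + 1) of GRK6-/- HSC minus the mean of the other 3 libraries, in percent of genes, for 5174 genes with 1 locus in all libraries (grey outline) and 547 genes with another locus in GRK6-/- HSC (orange outline), with Gclm marked at 4.20. The orange outline is shifted to higher values (median 0.55 against 0.01), and Gclm lies at its upper end.

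Gss (Entrez Gene 14854, mm9 chr2:155388919-155418442, minus strand), which adds glycine in the last step, had 13.5 FPKM in WT and 11.2 in GRK6-/- HSC. In GRK6-/- HSC its listed locus began at 155388914 instead, and the part of this in its value was not tested. In CLP it had 22.1 FPKM in WT but no row in GRK6-/-. No other row of that library covered its locus. Of 3701 genes with at least 10 FPKM in the other 3 libraries, 40 (1.08%), Gss among them, had no row in GRK6-/- CLP. These genes reach levels as high as that of Gpx1, while Gss lies near the lower limit. The share of missing rows at the level of Gss was not measured. The reason for a missing row is not stated, so no fold is given for Gss in CLP. In HSC its log2 difference between genotypes was -0.26.

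Gsr (Entrez Gene 14782, mm9 chr8:34763710-34808634, plus strand), glutathione reductase, had 44.3 FPKM in WT and 39.1 in GRK6-/- HSC, and 17.2 in WT and 29.5 in GRK6-/- CLP. Both HSC libraries were above both CLP libraries, as for Cat, an order whose share among all genes was not measured. The difference between CLP and HSC was past 2-fold in WT (log2 difference -1.31) and not in GRK6-/- (-0.40). Between genotypes Gsr differed by -0.17 in HSC and by 0.74 in CLP.

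Counted together, 2 of 10 genes (Sod1 and Gclm, both higher in GRK6-/-) passed a log2 difference of 1 between genotypes in HSC, where 37.4% of all 11624 genes with a value did, 19.3% higher and 18.0% lower. In CLP 3 of 10 passed it, Gclm higher and Sod2 and Gss lower, against 50.0% of 11191 genes, 26.6% higher and 23.4% lower. Without genes that lack a row in either library the count in CLP was 2 of 8, against 45.0% of all genes. The share past 2-fold differed with the level. At a mean of 100 FPKM or more, where Sod1, Gpx1 and Gpx4 lie, and in HSC also Gclm, it was 19.8% of genes for HSC and 25.7% for CLP. At 10 to 100 FPKM, where Sod2, Cat, Gclc, Gsr and Gss lie, it was 35.6% for HSC and 48.1% for CLP. The median size of the log2 difference was 0.30 for the 10 genes and 0.72 for all genes in HSC, and 0.58 and 0.9995 in CLP. The counts of the antioxidant genes were thus not above those of all genes, and the median signed difference was 0.23 in HSC and 0.26 in CLP against 0.05 for all genes in each.

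**Figure D3:**
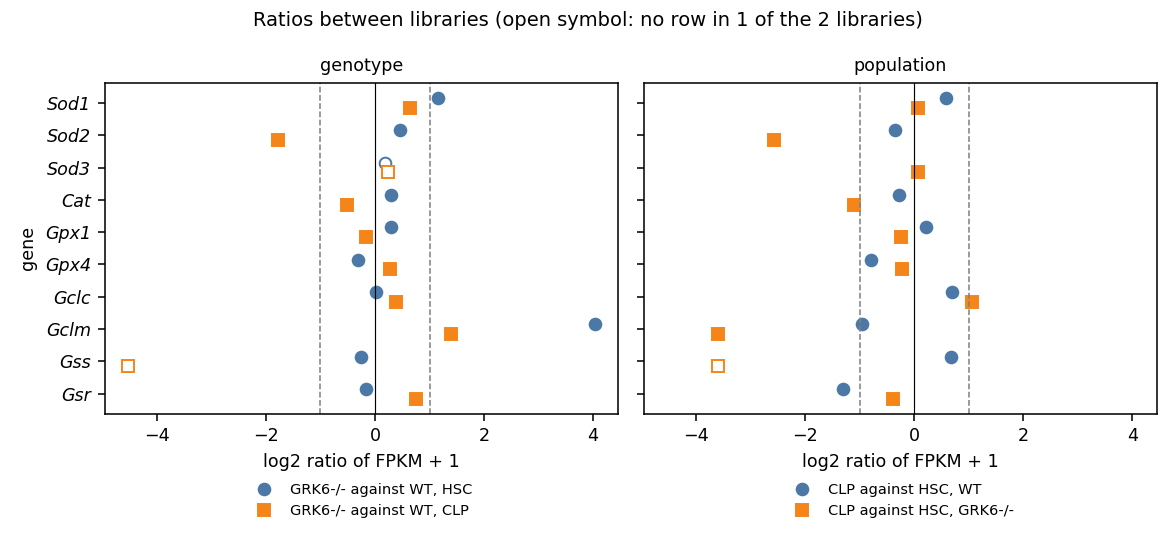
Log2 ratio of FPKM + 1 for each gene, between genotypes on the left and between populations on the right, with dashed lines at the 2-fold threshold and open symbols where 1 of the 2 libraries had no row. In HSC only Sod1 (1.15) and Gclm (4.03) lie outside the dashed lines between genotypes, and in CLP Gclm (1.39), Sod2 (-1.77) and Gss do.

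Between populations, 1 of 9 genes with a value in either library (Gsr) differed by 2-fold in WT, against 46.5% of 11202 genes (21.8% higher and 24.7% lower in CLP). Gclm was just short of it there, at a log2 difference of -0.96. In GRK6-/- 5 of 10 differed, a share near the 45.6% of 11708 genes (22.3% higher and 23.4% lower in CLP). Gclc was higher in CLP, and Sod2, Cat, Gclm and Gss were lower. These comparisons use the same libraries as those between genotypes, so a single high or low value such as Gclm in GRK6-/- HSC enters both.

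The design allows a test across genes only if the populations stand in for replicates of the genotype difference. In a limma fit of log2(FPKM + 1) on genotype and population, 0 of 11230 genes (0.0%) had a Benjamini-Hochberg adjusted p under 0.05, and 500 had an unadjusted p under 0.05. The fit had 1 residual degree of freedom. Gclm was the only one of the 9 antioxidant genes tested with an unadjusted limma p under 0.05 (mean log2 difference 2.71 ± 1.03 SE, adjusted p = 0.999), and with a pseudocount of 0.1 none of them had. The mean differences were 0.89 ± 0.93 (SE) for Sod1 and -0.66 ± 1.002 (SE) for Sod2, both smaller than their SE. These SE are moderated, that is, drawn largely from the variance of all genes (prior degrees of freedom 7.43). They therefore do not measure the spread of the single gene. A genotype difference that is unlike in HSC and CLP, as for Sod2, counts as error in this fit.

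**Figure D4:**
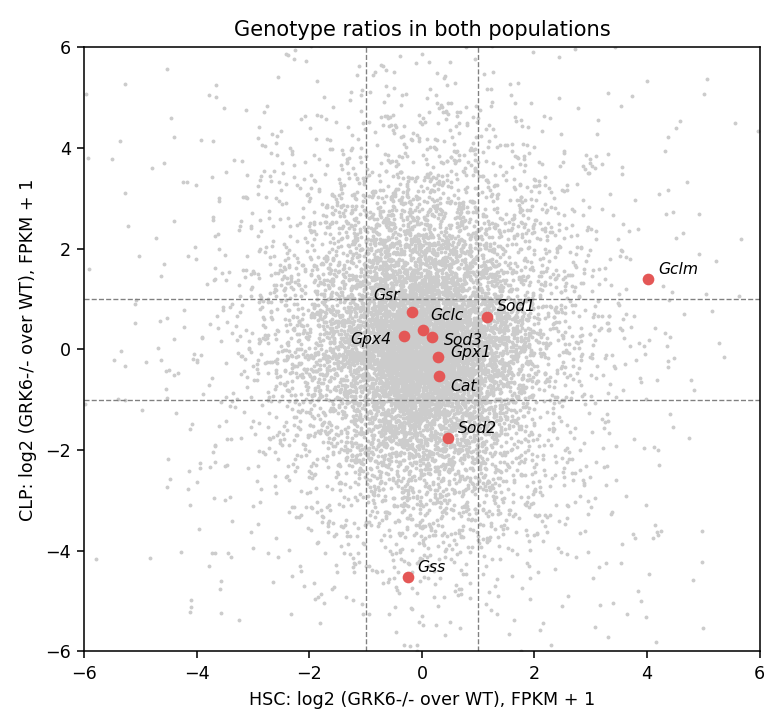
Log2 ratio of GRK6-/- over WT (FPKM + 1) in HSC on the horizontal and in CLP on the vertical axis, for 10398 genes in grey, of which 58 lie outside the axes, and the 10 antioxidant genes in red, with dashed lines at 2-fold. Gclm lies apart at 4.03 and 1.39, Sod1 lies past 2-fold in HSC (1.15), Sod2 and Gss lie past it below 0 in CLP, and the other 6 genes lie within 2-fold in both.

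A wider list of 64 glutathione and related genes gave 47 with a value in some library. Of these 44 had a value in HSC, and 13 were at least 2-fold higher and 8 at least 2-fold lower in GRK6-/- HSC, together 47.7% against 37.4% of all genes. In CLP 45 had a value, with 11 higher and 10 lower (46.7% against 50.0% of all genes). Between CLP and HSC 8 were higher and 6 lower of 43 in WT (32.6% against 46.5% of all genes), and 10 were higher and 14 lower of 46 in GRK6-/- (52.2% against 45.6%). Among those at 10 FPKM or more, Secisbp2, whose protein helps to insert selenocysteine into enzymes such as glutathione peroxidases, had 0.601 FPKM in WT HSC and 20.8 in GRK6-/- HSC, but was lower in GRK6-/- CLP (6.97) than in WT CLP (26.4). Gstm5, a glutathione transferase, had 12.6 FPKM in WT and 103 in GRK6-/- HSC, and 4.15 in WT and 25.8 in GRK6-/- CLP. Mgst3, a microsomal glutathione transferase, had no row in WT and 19.2 FPKM in GRK6-/- HSC, and 38.7 in WT and 253.5 in GRK6-/- CLP. Mgst3 was thus higher in GRK6-/- than in WT CLP, while in HSC the missing row in WT cannot be read as absence.

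In the other direction, Gstt1, another glutathione transferase, had 13.0 FPKM in WT and 1.45 in GRK6-/- HSC (log2 difference -2.52), and 19.2 in WT and 4.76 in GRK6-/- CLP (-1.81). The transferases Gstt3 (16.5 FPKM in WT and 5.37 in GRK6-/- HSC) and Gstk1 (12.7 and 4.97) were also lower in GRK6-/- HSC. In CLP, Oplah, which opens the oxoproline ring in glutathione turnover, had 18.9 FPKM in WT and no row in GRK6-/-, and Chac2, a glutathione-degrading enzyme, had no row in WT and 10.4 FPKM in GRK6-/-. In HSC Chac2 lay the other way, at 6.29 FPKM in WT and 1.94 in GRK6-/-. Gstm1 had 62.4 FPKM in WT CLP and no row in GRK6-/- CLP, while Gstm4 had a row in that library alone, at 105.1 FPKM. The locus listed for Gstm4 there was the one listed for Gstm1 in both HSC libraries, so these neighbouring, similar genes could not be told apart.

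The genes with a pattern over the 4 libraries closest to Gclm were Slc25a21, Thop1 and Irgm2, with a root mean square difference of 0.35, 0.44 and 0.44 on the centred log2 scale among 11229 genes. All 3 had their highest value in GRK6-/- HSC (20.0, 18.5 and 14.9 FPKM), which follows from their choice by likeness to Gclm. Elsewhere they had at most 1.37 FPKM, with no row for Slc25a21 in WT HSC and WT CLP and for Irgm2 in WT CLP.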

How the data were processed

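RNA-seq libraries of amplified cDNA from sorted HSC and CLP of WT and GRK6-/- mice were analysed, 1 per group. Cells were lysed one at a time, mRNA was reverse transcribed with poly(dT) primers, and cDNA was amplified in 20 plus 10 PCR cycles and pooled, which can favour the 3′ ends of transcripts and lets few cells set a value. The submitters' processing notes name TopHat 1.4.0 and mm9, and the authors deposited 1 FPKM value per gene and library. The quantifier's version, the annotation and the settings are not given in the sources used here. Listed loci differ between libraries for some genes.

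Rows sharing a symbol were added up, missing rows were set to 0, and 333 of 12750 symbols from rows naming several genes were left out. Between 10056 and 11060 rows were listed per library. Ratios are log2 of FPKM + 1, which understates low genes, and the threshold was an absolute value of 1. No test of single comparisons was made, because counts and replicates were not at hand. Genes reaching 1 FPKM in any library entered limma 3.58.1 (R 4.3.3). The FPKM worth of 1 fragment was taken from the commonest step among values under 0.3 FPKM of genes with 1 annotated transcript of 1500 bp or more (GENCODE vM1), and 73.8% to 81.6% of these values lay within 10% of 1, 2 or 3 steps. Other steps used Python 3.11.15 and pandas 2.3.3, and the scripts were tested on simulated data. The genes, lists and rules were chosen with earlier results of these data known. Named genes were the 10 members, in a wider list the 3 largest rises and falls per population among genes at 10 FPKM or more, and the 3 genes most like the member of widest range. Marker lists covered HSC, CLP, erythroid, myeloid, B lineage, megakaryocyte and T and NK cells. Positions from the files are mm9, counted from 1, and promoter positions are GRCm38.p6. Alternatives were the pseudocount, the threshold, rescaling, the highest row per symbol and filters, plus leaving out genes without a row or with another locus, which were added after seeing the data.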

Additional observations from a re-analysis of the deposited data

Results flagged for a closer look

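For 5 of the 10 genes the difference between genotypes had opposite signs in HSC and CLP, with 1 library per group, and the difference between populations was not tested. Opposite signs were also found for 50.0% of 10398 genes with values in both populations. The log2 difference in CLP minus that in HSC was -2.23 for Sod2 (0.46 in HSC and -1.77 in CLP). It was -0.82 for Cat (0.30 and -0.52) and -0.45 for Gpx1 (0.29 and -0.16). For Gsr it was 0.92 (-0.17 and 0.74) and for Gpx4 0.58 (-0.31 and 0.27). Of these 10 differences only that of Sod2 in CLP was past 2-fold. The sign of small differences depended on the scaling. With the libraries rescaled without the erythroid markers, Gpx1 was 0.14 in HSC and -0.002 in CLP. Gclc, not among the 5 genes, was then -0.12 in HSC and 0.54 in CLP.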

How the results depend on the processing

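With the stricter threshold of 2 on the log2 difference, the genes past it between genotypes numbered 1 in HSC (Gclm) and 1 in CLP (Gss, which has no row in GRK6-/- CLP), and between CLP and HSC 0 in WT and 3 in GRK6-/- (Sod2, Gclm and Gss). A pseudocount of 0.1 raised the count between populations in WT to 2, as Gclm passed 2-fold. Leaving out genes whose locus differs between the libraries removed Gclm and Gss in HSC and left a count of 1, Sod1, against 36.9% of all genes. This setting was added after seeing the data. Counts under all other settings were within 1.5 times those given. At the stricter threshold 12.4% of all genes passed between genotypes in HSC and 24.8% in CLP, and 20.5% between populations in WT and 19.1% in GRK6-/-. Of 156 log2 differences of single genes recomputed with another pseudocount, rescaling or row choice, 152 stayed on the same side of 2-fold, 4 crossed it (Sod3 between genotypes in both populations, Gclm between populations in WT and Cat in GRK6-/-), and none of those past 2-fold changed sign. The limma count was 0 with every filter, pseudocount and rescaling run, while 349 to 500 genes had an unadjusted p under 0.05, and the lowest adjusted p among the antioxidant genes was 0.888 to 0.999. Median log2 ratios of genes expressed in both libraries lay between -0.01 and 0.03. A block for replicate numbers could not be fitted, since the labels carry none, and the limma fit already sets the genotypes against each other within each population. With 1 library per group the spread is unknown for every gene, Sod3 is at the limit of depth, and the missing row of Gss cannot be read as absence of the transcript.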
